A study of Mus musculus with 64 samples.

Results

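The glutamate receptor subunits other than those of the NMDA receptor, together with the GABA receptor subunits, were examined in the nucleus accumbens (NAc) and the prefrontal cortex (PFCx) of the mouse. Members were taken by gene symbol alone: Gria, Grik, Grid and Grm genes numbered 1 to 8, the Gabra, Gabrb, Gabrg, Gabrd, Gabre, Gabrp, Gabrq and Gabrr genes, and Gabbr1 and Gabbr2. The rule found 40 genes of 46785 in the tables, with 172 of the 112714 transcripts. They were 4 AMPA, 5 kainate and 2 delta receptor genes, 8 metabotropic glutamate receptor genes, 19 GABA-A receptor genes and 2 GABA-B receptor genes.

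RNA came from adult male C57BL/6N mice aged 8 to 10 weeks, 2 h after a single intraperitoneal injection. The drugs were the antipsychotics haloperidol (1 mg/kg) and risperidone (0.5 mg/kg), the antidepressants mianserin (20 mg/kg) and venlafaxine (16 mg/kg), the psychostimulant methamphetamine (2 mg/kg) and the NMDA receptor blocker ketamine (20 mg/kg), with saline as the control. Haloperidol and risperidone were dissolved in saline with a drop of hydrochloric acid, and the other drugs in saline. Whether any control mice received the acid is not stated in the sources used here. Each drug had 4 libraries in each tissue and saline had 8, which makes 64 libraries. The saline libraries carry the labels of 2 sets, and the number of transcripts above 0 placed the drugs with them: haloperidol, risperidone and methamphetamine with set I, and mianserin, venlafaxine and ketamine with set II. In the NAc, 85287 to 87827 transcripts were above 0 in a library of set I and 107099 to 110556 in one of set II, while all PFCx libraries held 108556 to 110852. The sets overlap in this number in the PFCx, so the set of a PFCx drug library was carried over from the NAc libraries of the same drug. Set and drug cannot be told apart in comparisons with all saline libraries, so a second comparison set each drug against the 4 saline libraries of its set, called own-set saline here. The estimated aligned bases of a library ranged from 1.52 to 3.26 gigabases. The labels do not say whether each library came from a separate mouse, so p-values measure the spread between libraries.

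AMPA and kainate receptors are tetramers of subunits that open a cation channel when glutamate binds, and delta receptors resemble them in sequence but act mainly as synaptic organisers bound by cerebellins. Metabotropic glutamate receptors signal through G proteins: group I, with Grm5, through Gq, and group II (Grm2, Grm3) and group III (Grm4, Grm6, Grm7, Grm8) through Gi. GABA-A receptors are chloride channels of 5 subunits, usually alpha and beta subunits with a gamma subunit at synapses or a delta subunit outside them, and GABA-B receptors are obligate pairs of Gabbr1 and Gabbr2 coupled to Gi. The NAc is made mostly of GABA-releasing striatal projection neurons, and the PFCx mostly of glutamate-releasing pyramidal neurons with interneurons.

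Every AMPA receptor gene carries a pair of alternative exons, flip and flop, that encode the same stretch next to the last membrane segment and set how fast the receptor desensitises. They are the best known isoform switch of these genes, and the sequences that tell the forms of Gria1 and Gria2 apart are shown here because the isoform results below set these forms against each other. All are from GENCODE vM21 on GRCm38, written 5′ to 3′ along the transcript, with capitals where flip and flop differ. The Gria1 exons lie at chr11:57310608-57310722 (flip) and chr11:57309769-57309883 (flop) on the plus strand, and the Gria2 exons at chr3:80690404-80690518 (flip) and chr3:80691320-80691434 (flop) on the minus strand.
Gria1 flip: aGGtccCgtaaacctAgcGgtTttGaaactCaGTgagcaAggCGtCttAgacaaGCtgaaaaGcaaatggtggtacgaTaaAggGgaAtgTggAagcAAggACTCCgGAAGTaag
Gria1 flop: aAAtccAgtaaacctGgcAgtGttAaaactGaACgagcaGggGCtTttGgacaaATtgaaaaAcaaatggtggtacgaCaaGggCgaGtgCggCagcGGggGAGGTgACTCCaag
Gria2 flip: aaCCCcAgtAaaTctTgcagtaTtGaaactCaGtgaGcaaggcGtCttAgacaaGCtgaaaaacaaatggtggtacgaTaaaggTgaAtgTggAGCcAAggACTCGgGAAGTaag
Gria2 flop: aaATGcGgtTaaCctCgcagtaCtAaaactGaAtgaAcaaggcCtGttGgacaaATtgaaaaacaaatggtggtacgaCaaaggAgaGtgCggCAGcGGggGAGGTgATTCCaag
The exons of a pair have the same length. Flip and flop differ at 36 of these bases in Gria1 and in Gria2, at 32 in Gria3 and at 31 in Gria4, but many of the differences are silent: of 38 whole codons, 8 encode another residue in Gria1, 9 in Gria2 and Gria3, and 10 in Gria4.

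Levels were compared between the tissues in the saline libraries, with 8 per tissue. A gene's level is the sum of the FPKM of its transcripts (fragments scaled to transcript length and to the mapped reads of the library), and a gene was called when limma's moderated test on log2(FPKM + 1) gave a Benjamini-Hochberg adjusted p under 0.05 over the 37034 genes tested. All 40 members entered the test. Of them, 12 were NAc-higher and 15 PFCx-higher (12 and 13 among the 32 with a mean of at least 1 FPKM in a tissue), while over all genes 7.16% were called higher in the NAc and 26.8% higher in the PFCx. The median log2 difference, NAc minus PFCx, was -0.04 over the members and -0.10 over all genes tested. Within set I alone, 9 members were NAc-higher and 16 PFCx-higher, against 5.56% and 29.7% of all genes. Within set II alone the numbers were 10 and 12, against 6.74% and 14.1% of all genes. Both sets called 20 of the 40 members the same way, and 11.1% of all genes. The libraries of the tissues did not overlap for 19 members and for 8.5% of all genes. In whole tissue, fewer cells that carry a receptor and less RNA per cell cannot be told apart.

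**Figure D1:**
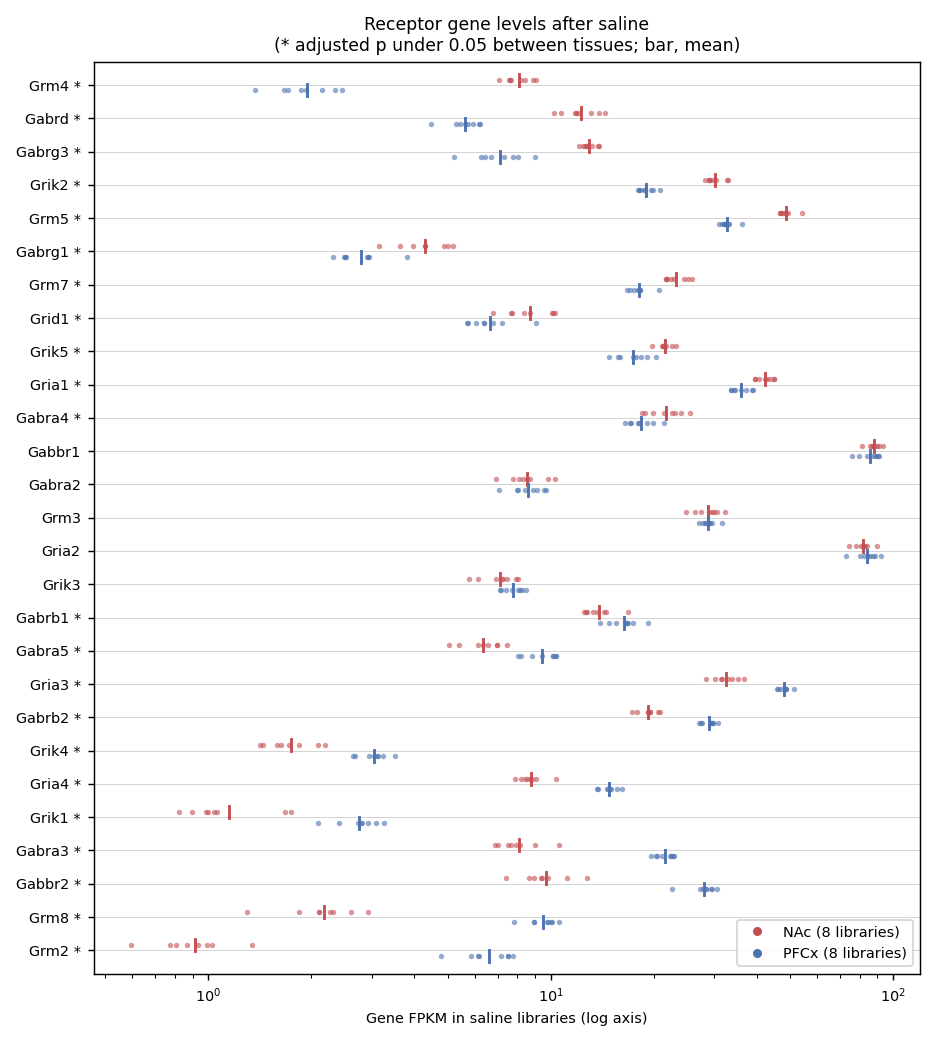
Gene FPKM (log axis) of 27 members with a mean of at least 1 in a tissue, in the 8 saline libraries of the NAc (red) and of the PFCx (blue), ordered by the difference; bars are means and asterisks mark genes called between the tissues. Grm4 and Gabrd head the genes higher in the NAc, and Grm2, Grm8, Gabbr2 and Gabra3 those higher in the PFCx, with no overlap of the libraries of these 6 genes.

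The largest differences lay among the metabotropic receptors of groups II and III, which dampen transmitter release. Grm2 measured 0.595 to 1.34 FPKM in the NAc libraries (median 0.898) and 4.77 to 7.75 in the PFCx libraries (median 6.68), so that the highest NAc library lay below the lowest PFCx library. Its mean FPKM was 7.22-fold higher in the PFCx. On log2(FPKM + 1), which understates changes of low genes, the difference was -1.99 with an SE of 0.09 (adjusted p = 3.71e-11). Grm8 ranged from 1.29 to 2.93 FPKM in the NAc (median 2.19) and from 7.81 to 10.6 in the PFCx (median 9.79), a log2 difference of -1.73 with an SE of 0.09. Grm4 went the other way: it measured 7.05 to 9.09 FPKM in the NAc (median 7.95) and 1.37 to 2.46 in the PFCx (median 1.90), a log2 difference of 1.63 with an SE of 0.08 (adjusted p = 4.15e-11). The transcripts of these groups thus differed between the tissues in a direction that depended on the gene. The place of the receptor proteins was not measured. Grm7, the most abundant of group III, was only modestly higher in the NAc, at 23.3 ± 1.66 against 18.1 ± 1.22 FPKM (SD, n = 8). Grm3, the other group II gene and one that astrocytes also express, was not called, at 28.8 ± 2.40 against 28.9 ± 1.35 FPKM (log2 difference -0.01, SE 0.05).

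In group I, Grm5 was higher in the NAc, at 48.7 ± 2.43 against 32.8 ± 1.53 FPKM (log2 difference 0.56, SE 0.04, adjusted p = 1.32e-08). It was the most abundant metabotropic receptor gene named here in both tissues, ahead of Grm3. Grm6, a receptor of retinal bipolar cells, averaged under 0.2 FPKM in both tissues.

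Among the AMPA subunits, Gria2, the subunit that makes the channel impermeable to calcium once its transcript is edited, was the most abundant in both tissues. It was not called, at 81.7 ± 4.50 FPKM in the NAc against 84.3 ± 5.98 in the PFCx (log2 difference -0.04, SE 0.05). Gria1 was higher in the NAc, at 42.4 ± 2.22 against 35.9 ± 2.23 FPKM (log2 difference 0.23, SE 0.05, adjusted p = 0.00104), and its libraries did not overlap: 39.5 to 45.1 in the NAc against 33.6 to 39.1 in the PFCx. Gria3 was higher in the PFCx, at 48.2 ± 1.77 against 32.6 ± 2.72 FPKM (log2 difference -0.55, SE 0.05), and so was Gria4, at 14.8 ± 0.846 against 8.75 ± 0.742 (log2 difference -0.70, SE 0.05). As shares of the summed FPKM of the 4 genes, Gria1 held 25.6% ± 1.45 and Gria3 19.7% ± 1.59 in the NAc, while in the PFCx their order turned, with 19.6% ± 1.35 and 26.3% ± 1.04.

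Of the kainate subunits, Grik2 was the most abundant in both tissues and was higher in the NAc, where it ranged from 28.2 to 33.0 FPKM (median 29.5) against 17.99 to 20.9 in the PFCx (median 18.8), without overlap. The log2 difference was 0.64 with an SE of 0.05 (adjusted p = 8.57e-09). Its partner Grik5, which needs a subunit such as Grik2 to form a channel, was also higher in the NAc, at 21.6 ± 1.01 against 17.4 ± 1.87 FPKM, with overlapping libraries and no call in set I alone (adjusted p = 0.0616). Grik1 and Grik4 were low and were higher in the PFCx: Grik1 at 2.77 ± 0.368 against 1.15 ± 0.352 FPKM and Grik4 at 3.04 ± 0.287 against 1.74 ± 0.284. Grik3 was not called, at 7.10 ± 0.799 against 7.79 ± 0.523 FPKM. The delta receptor gene Grid1 was higher in the NAc, by 0.34 on the log2 scale, and of the sample sets alone was called in set I (adjusted p = 0.00402) and not in set II (adjusted p = 0.528).

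Of the GABA-A alpha subunits, which set how a receptor responds to benzodiazepines, Gabra3 and Gabra5 were higher in the PFCx and Gabra4 was higher in the NAc. Gabra3 ranged from 6.89 to 10.6 FPKM in the NAc (median 7.80) and from 19.7 to 22.9 in the PFCx (median 21.7), a log2 difference of -1.32 with an SE of 0.07. Gabra5 was higher in the PFCx as well, at 9.45 ± 0.981 against 6.36 ± 0.817 FPKM, and Gabra2 was not called, at 8.60 ± 0.886 against 8.56 ± 1.08. Gabra4, a subunit that often pairs with delta, was slightly higher in the NAc, at 21.8 ± 2.53 against 18.4 ± 1.66 FPKM (adjusted p = 0.0221), but was called in neither set alone.

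The delta subunit and 2 gamma subunits of the GABA-A receptor, Gabrg1 and Gabrg3, were higher in the NAc. Gabrd, which marks receptors outside synapses, ranged from 10.2 to 14.4 FPKM in the NAc (median 11.9) and from 4.47 to 6.23 in the PFCx (median 5.68), without overlap and with a log2 difference of 1.00 (SE 0.07, adjusted p = 1.09e-08). Gabrg3 measured 12.1 to 13.8 FPKM in the NAc (median 12.7) and 5.22 to 9.02 in the PFCx (median 7.004), a log2 difference of 0.79 with an SE of 0.08. Gabrg1 was higher in the NAc, at 4.31 ± 0.711 against 2.80 ± 0.469 FPKM.

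Gabrb2 was higher in the PFCx, at 29.0 ± 1.31 against 19.3 ± 1.21 FPKM, and Gabrb1 too, at 16.4 ± 1.63 against 13.8 ± 1.41, although Gabrb1 was called in neither set alone (adjusted p = 0.052 in set I and 0.115 in set II). For the GABA-B receptor, Gabbr1 was level at 88.0 ± 3.74 and 85.7 ± 5.45 FPKM, while Gabbr2 ranged from 7.41 to 12.8 in the NAc (median 9.42) and from 22.7 to 30.7 in the PFCx (median 28.5). The log2 difference of Gabbr2 was -1.45 with an SE of 0.09 (adjusted p = 1.01e-09). Gabbr2 thus made up 9.95% ± 1.83 of the FPKM of the pair in the NAc against 24.7% ± 0.977 in the PFCx.

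**Figure D2:**
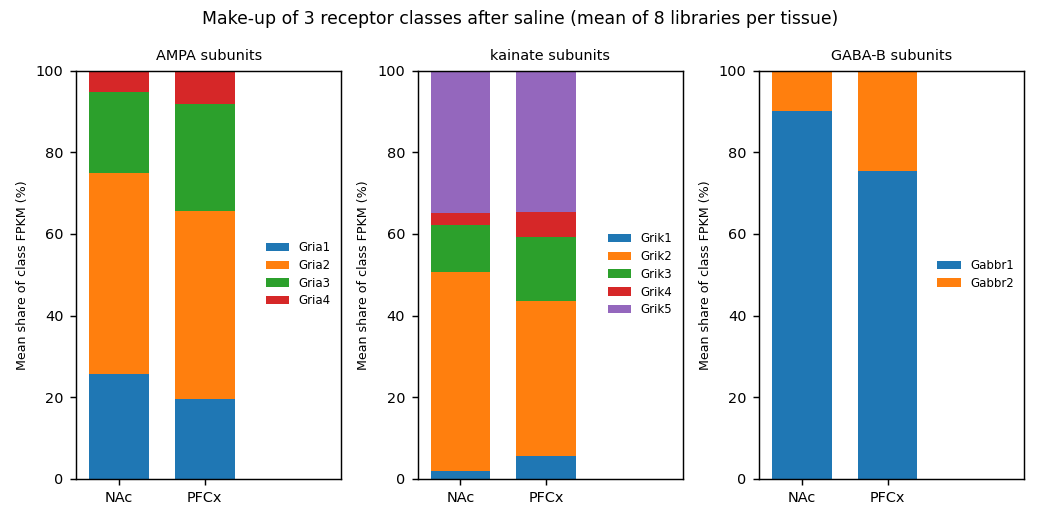
Mean share (%) of each gene in the summed FPKM of the AMPA, kainate and GABA-B receptor subunits after saline, with 8 libraries for the NAc and 8 for the PFCx; colours within a bar are genes. The NAc bars hold more Gria1 and Grik2, and the PFCx bars more Gria3, Gria4, Grik1 and Gabbr2.

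All 27 members called after saline were also called in the same direction in the 48 drug libraries, with drug as a term, as were 11495 of the 12564 genes called in all. That comparison was added after the data were seen.

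Genes of the GABA-A receptor lie in groups on the chromosomes, which the choice of members did not use. In the group at chr5:70751047-72149037, Gabrg1 and Gabra4 were higher in the NAc, Gabrb1 was higher in the PFCx and Gabra2 was not called. Gabra4 and Gabrb1 share 196 bases on opposite strands, and Gabra5 also overlaps a gene on the opposite strand. Whether counting used the strand is not stated in the sources used here, so reads in those stretches cannot be told apart.

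The remaining 8 members averaged under 1 FPKM in both tissues: Gabra6, Gabre, Gabrp, Gabrq, Gabrr1, Gabrr2, Gabrr3 and Grm6. Gabra6 belongs to cerebellar granule cells and the Gabrr genes encode the rho subunits of the retina. Over all 16 libraries of a set, drugs included, the means of these 8 genes ran from 0.002 to 0.297 FPKM in NAc set I, from 0.144 to 0.666 in NAc set II, and from 0.136 to 0.360 in the PFCx. Gabrp and Grm6 were under 0.05 FPKM in 16 of 16 libraries of NAc set I. Each was called higher in the PFCx over all saline libraries, with an adjusted p of 0.00472 and 0.00351 in set I alone, but of 0.409 and 0.722 in set II alone.

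The labelled tissues carried their own markers. All 9 markers of striatal projection neurons were higher in the NAc, with a summed level of 544 to 739 FPKM against 22.4 to 79.9 in the PFCx, and all 8 markers of cortical projection neurons were higher in the PFCx, with 180 to 231 FPKM against 28.3 to 75.5 in the NAc. Oligodendrocyte markers, 5 of 5, were also higher in the NAc (463 to 646 against 119 to 165 FPKM), and astrocyte markers were higher in the PFCx for 3 of 5 (69 to 97 FPKM against 67 to 82 in the NAc). Of the 5 microglial markers 2 were higher in the NAc, of 4 endothelial markers 0 were called (limma, with 1, Flt1, at an unadjusted p under 0.05), and of 6 interneuron markers 1 was NAc-higher and 3 PFCx-higher. All 3 cerebellar granule cell markers were called higher in the PFCx at a summed 1.36 to 2.27 FPKM, mostly from Neurod1, and of 3 septal and thalamic markers Zic1 was higher in the NAc. The part of cell make-up in the receptor differences was not tested.

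The partners of these receptors were listed apart, 60 genes in 7 groups, of which 21 were NAc-higher and 17 PFCx-higher. Over all genes tested 7.16% were NAc-higher and 26.8% PFCx-higher, and these shares are also the background of the group counts below. In GABA synthesis and handling, 7 of 8 genes were NAc-higher and 1 PFCx-higher. Among the former were Gad2, a GABA-making enzyme, at 44.1 ± 2.75 against 9.48 ± 0.978 FPKM, and Slc32a1, the vesicular GABA carrier, at 23.8 ± 3.82 against 4.68 ± 1.04. Of 9 genes of glutamate synthesis, loading and uptake, 5 were higher in the PFCx and 1 in the NAc, with the vesicular carrier Slc17a7 at 130 ± 15.7 against 35.1 ± 13.8 FPKM. The NAc mean of Slc17a7, which is also among the cortical markers, was 46.5 in set I and 23.6 in set II.

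Of 20 partners of AMPA receptors, 5 were NAc-higher and 7 PFCx-higher. Cacng4, an auxiliary subunit, measured 10.1 ± 0.986 FPKM in the NAc against 3.57 ± 0.799 in the PFCx. Cnih3, another, was at 5.12 ± 1.16 and 15.9 ± 1.04, and the neuronal pentraxin receptor Nptxr at 16.5 ± 5.49 and 73.9 ± 6.97. The NAc mean of Nptxr was 21.2 in set I and 11.8 in set II. Both auxiliary subunits of kainate receptors, Neto1 (18.1 ± 1.52 against 9.35 ± 0.522 FPKM) and Neto2, were higher in the NAc, as Grik2 was, and 4 of the 8 kainate and delta partners were higher there and 3 in the PFCx. Of the GABA-B auxiliary genes, 2 of 4 were higher in the NAc, led by Kctd8 at 3.69 ± 0.405 against 0.822 ± 0.243, and 0 in the PFCx. Anchoring genes of GABA-A receptors gave 2 NAc-higher and 1 PFCx-higher gene of 8. The 3 editing enzymes gave 0 calls with limma, and 0 at an unadjusted p under 0.05. Adarb1, which edits the Gria2 transcript, was at 14.5 ± 0.498 and 14.3 ± 0.857 FPKM.

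Isoforms were compared between the tissues as the percent of a gene's FPKM that each transcript carried, for genes with a mean of at least 1 FPKM in both tissues and at least 2 transcripts at 5% or more. A share was called at an adjusted p under 0.05 and a difference of at least 10 percentage points, which 0.604% of the 41887 transcripts met. Of the 110 transcripts of 29 members tested, 0 were called by limma, with 27 at an unadjusted p under 0.05, against 14.3% of all transcripts tested. The median difference was 3.31 points in size with a median SE of 2.38. The largest, Gabra5 transcript ENSMUST00000206382, went from 25.5% ± 17.0 in the NAc to 49.5% ± 11.4 in the PFCx (adjusted p = 0.122), with a wide spread between libraries in both tissues.

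The one share past the adjusted p, of the Gabrg3 transcript ENSMUST00000068911, was 32.8% ± 2.64 in the NAc against 41.8% ± 3.32 in the PFCx (SD, n = 8, limma adjusted p = 0.0183), just under the limit of 10 points. Gabbr1 is transcribed from alternative promoters, which give a long first form with sushi domains and a short form. The full-length transcript from the upstream start, ENSMUST00000025338, held 11.3% ± 1.89 in the NAc against 7.30% ± 0.803 in the PFCx, and ENSMUST00000172792, from the downstream start, 47.5% ± 3.62 and 43.7% ± 1.68. Neither difference was called (adjusted p = 0.132 and 0.309).

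Flip and flop were set against each other as flip in percent of flip plus flop FPKM. After saline, Gria1 was 55.4% ± 2.26 flip in the NAc against 55.2% ± 6.34 in the PFCx, and Gria2 was 70.7% ± 2.48 and 70.6% ± 3.48. Neither gene differed between the tissues beyond its spread (exact permutation test, two-sided, p = 0.93 and p = 0.979). Gria3 was 94.4% ± 3.87 flip in the NAc and 88.0% ± 8.57 in the PFCx (exact permutation p = 0.0597, 0.239 adjusted over the 4 genes), but the difference turned between the sets, at 13.7 points in set I (exact permutation p = 0.0286) and -1.03 points in set II (exact permutation p = 0.657). Gria4 was 33.1% ± 15.4 and 40.0% ± 6.07. The measure is not equally sharp in every gene. The annotated Gria1 flip transcripts hold 387 bases that its flop transcript lacks, but the Gria2 flop transcript holds 6460 bases that its flip transcript lacks, most of them outside the exon shown above, and the Gria3 flip transcript 2356. The ratio in Gria2 and Gria3 can therefore also follow the use of these other stretches, which was not tested. In Gria4, the flip transcript is 5352 bases long in GENCODE vM21 but 5441 in the deposited annotation, the length of its flop transcript. Its label as flip rests on vM21.

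After the drugs, 48 comparisons of the flip share were made (4 genes, 6 drugs, 2 tissues), and the lowest adjusted p was 0.194 against all saline and 0.457 against the own set, where an exact test of 4 against 4 libraries cannot go below 0.0286. The Gria2 share in the NAc after mianserin was 61.95%, 62.1%, 65.5% and 66.1%, under all 8 saline libraries, which ran from 67.3% to 74.6%. The mean difference was -6.75 points (exact permutation p = 0.00404, the smallest possible, adjusted p = 0.194) and -5.88 points against its own set (exact permutation p = 0.0286). The Gria1 share in the NAc after haloperidol was 47.0%, 48.8%, 50.6% and 53.8%, under the 4 saline libraries of its own set (54.0% to 59.0%), with a difference of -6.41 points (exact permutation p = 0.0286). The Gria3 share in the NAc after methamphetamine differed by -7.63 points from its own set (exact permutation p = 0.0286). At an unadjusted p under 0.05 (exact permutation) lay 9 of the 48 comparisons against all saline, and these 3 against own-set saline. None of the 3 passed the adjustment. Over 48 comparisons, a single comparison at the smallest possible p cannot pass it, so the adjustment decides nothing about these 3 shares. These tests took the libraries as unpaired. Those of mianserin, haloperidol and methamphetamine in the NAc each correlated at over 0.1 with the same-numbered library of own-set saline. No paired test of the flip share was made.

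**Figure D3:**
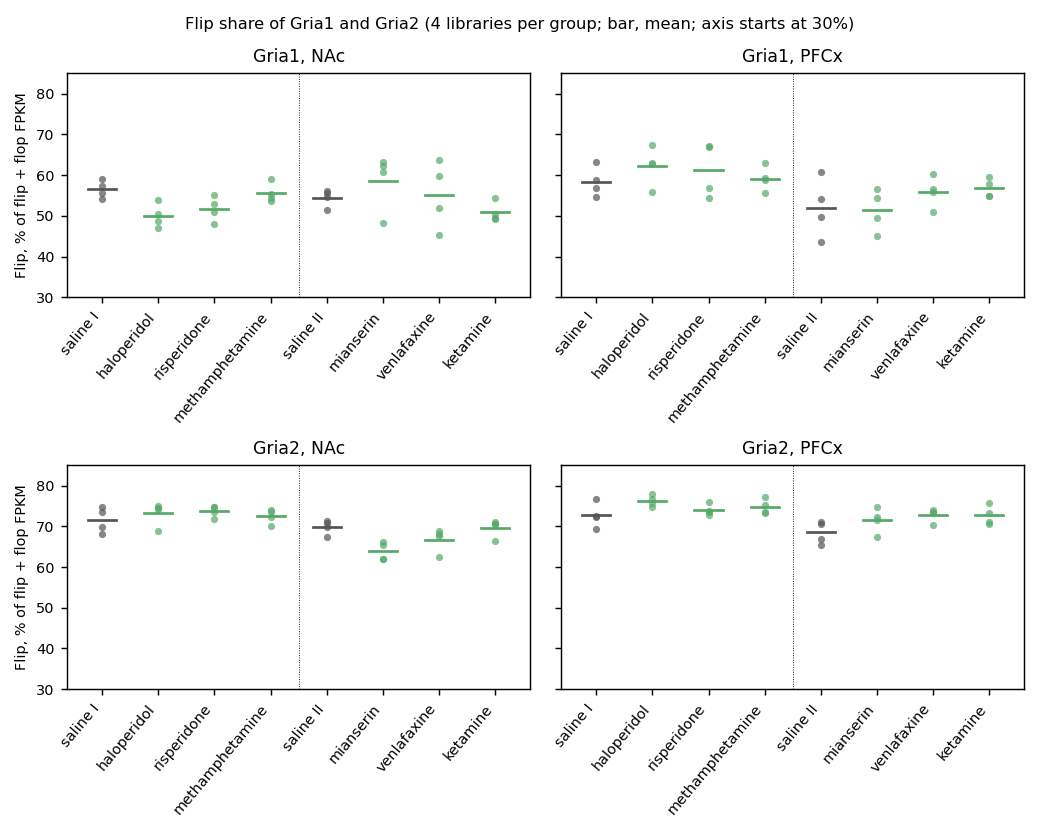
Flip share (% of flip plus flop FPKM, axis from 30%) of Gria1 and Gria2 in each library of the NAc and the PFCx, 4 per group, with group means as bars; grey points are saline and the dotted line parts sample set I from set II. The 4 mianserin libraries of the NAc lie below every saline library for Gria2, and in most other groups drug and saline libraries overlap.

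At the level of genes, the effect of the 6 drugs on the receptors was compared with all saline libraries first. In the NAc the moderated F test called 18 of the 40 members, but 36.9% of all genes tested were called in this comparison, which mixes drug with sample set. Against the saline libraries of each drug's own set, 1.63% of all genes were called, and 0 of the 40 members (limma, 8 with an unadjusted p under 0.05, against 11.3% of all genes). Among the 18 were Gabra2, Gabra3, Gabra6, Gabrd, Gabre, Gabrg1, Gabrg3, Gabrp, Gabrq, Gabrr3, Grik2, Grik5, Grm3, Grm4, Grm6 and Grm7, which include 6 of the 8 genes near 0. In the PFCx, 1 of the 40 was called, Gabra5, against 3.34% of all genes, and its call was lost with the replicate number as a block (limma adjusted p = 0.0556). Own-set saline called 0 of the 40 there (limma, 0 also at an unadjusted p under 0.05) against 1.45% of all genes by adjusted p and 11.9% by unadjusted p. Gabra5 measured 11.05, 11.3, 12.3 and 12.8 FPKM after mianserin in the PFCx, and 8.03 to 10.4 in the 8 saline libraries, without overlap. Against its own set alone the log2 difference for mianserin was 0.21 (limma adjusted p = 0.297). Own-set saline with the replicate number within the set as a block called 0 of the 40 in the NAc (limma, 13 at an unadjusted p under 0.05, against 14.4% of all genes), with 2.38% of all genes called, and 0 in the PFCx (limma, 2 at an unadjusted p under 0.05, against 16% of all genes), with 2.58% called.

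For single drugs in the NAc, 3 pairs of gene and drug were called against all saline, while 1.21% of all such pairs were: Grik5 after risperidone, and Gabrd and Grm4 after ketamine. Against own-set saline 0 pairs were called in the NAc, against 0.297% of all pairs. In the PFCx 0 pairs were called against all saline, with 0.285% of all pairs called, and 0 against own-set saline, with 0.767% called. The own-set comparison with the block within the set called 0 pairs in either tissue. Over all pairs it called 0.385% in the NAc and 1.34% in the PFCx. All these percentages count calls by adjusted p. At an unadjusted p under 0.05 (limma), the NAc held 18 of 240 pairs against own-set saline. The PFCx held 32 against all saline and 16 against own-set saline, and each tissue held 25 with the block. The share of all pairs at an unadjusted p is not given here, so these counts have no background beside them.

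Grik5 after risperidone measured 25.1, 26.1, 26.7 and 27.5 FPKM in the NAc, above all 8 saline libraries, which ran from 19.8 to 23.2. The log2 difference was 0.28 with an SE of 0.06 (limma adjusted p = 0.0304), and against its own set 0.29 with an SE of 0.07 (adjusted p = 0.115). The call was lost without any 1 of 7 libraries, the 4 risperidone libraries among them (adjusted p = 0.0503 to 0.117). Risperidone libraries held 679 to 739 FPKM of striatal markers, against 610 to 713 in saline set I, and 47.3 to 72.4 FPKM of cortical markers, against 56.1 to 75.5. Of the 9 striatal markers, 5 were above and 4 below the mean of saline set I. Of the 8 cortical markers, 1 was above it and 7 below.

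Grm4 after ketamine measured 5.47, 5.75, 6.38 and 6.88 FPKM in the NAc, below all 8 saline libraries (7.05 to 9.09). The log2 difference was -0.35 with an SE of 0.09 (limma adjusted p = 0.045), and -0.31 against its own set (adjusted p = 0.24). The call was lost without any 1 of 18 libraries (adjusted p = 0.05 to 0.15). Haloperidol went the other way for Grm4, at 9.18 to 10.7 FPKM, above all saline libraries, but was not called (0.25, limma adjusted p = 0.194). Gabrd after ketamine measured 8.20, 8.51, 10.1 and 10.8 FPKM, with 10.2 to 14.4 in saline, so that the groups overlapped. Its log2 difference was -0.35 with an SE of 0.09 (limma adjusted p = 0.0341), and -0.27 against its own set (adjusted p = 0.26). The call was lost without any 1 of 6 libraries, 2 ketamine and the 4 of saline set I (adjusted p = 0.051 to 0.127).

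Cortical markers moved with the ketamine libraries of the NAc. The summed level of the 8 cortical projection neuron markers was 53.0, 65.3, 72.5 and 80.9 FPKM after ketamine and 28.3, 39.1, 42.1 and 51.4 in saline set II, with 7 of 8 markers above the saline mean. It was 56.1 to 75.5 in saline set I. All 9 striatal markers were below the mean of saline set II, with sums of 457 to 646 against 544 to 739 FPKM. Below own-set saline were also 9 of 9 after haloperidol, 8 of 9 after methamphetamine, mianserin and venlafaxine, and 4 of 9 after risperidone. All 5 oligodendrocyte markers were above the mean of saline set II, at 595 to 653 against 463 to 527 FPKM. Saline set I held 569 to 646 FPKM of them. All 5 astrocyte markers were above the mean of saline set II after ketamine, at 81.9 to 85.9 against 66.7 to 72.1 FPKM, and after mianserin. Against own-set saline, ketamine gave 9 of 40 members an unadjusted p under 0.05, 7 higher and 2 lower, while 6.53% of all genes were higher and 3.48% lower at that level. Among the higher ones were Grik1, Gabbr2, Gabra3, Gabrg3, Gria4 and Gria2, by 0.14 to 0.37 on the log2 scale, and of these Grik1, Gabbr2, Gabra3 and Gria4 were among the genes higher in the PFCx after saline, Gabrg3 among those higher in the NAc, and Gria2 was in neither. The lower ones, Gabrd and Grm4, were among those higher in the NAc. The lowest adjusted p of the 9 was 0.24, and the part of the tissue make-up in these differences was not tested.

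**Figure D4:**
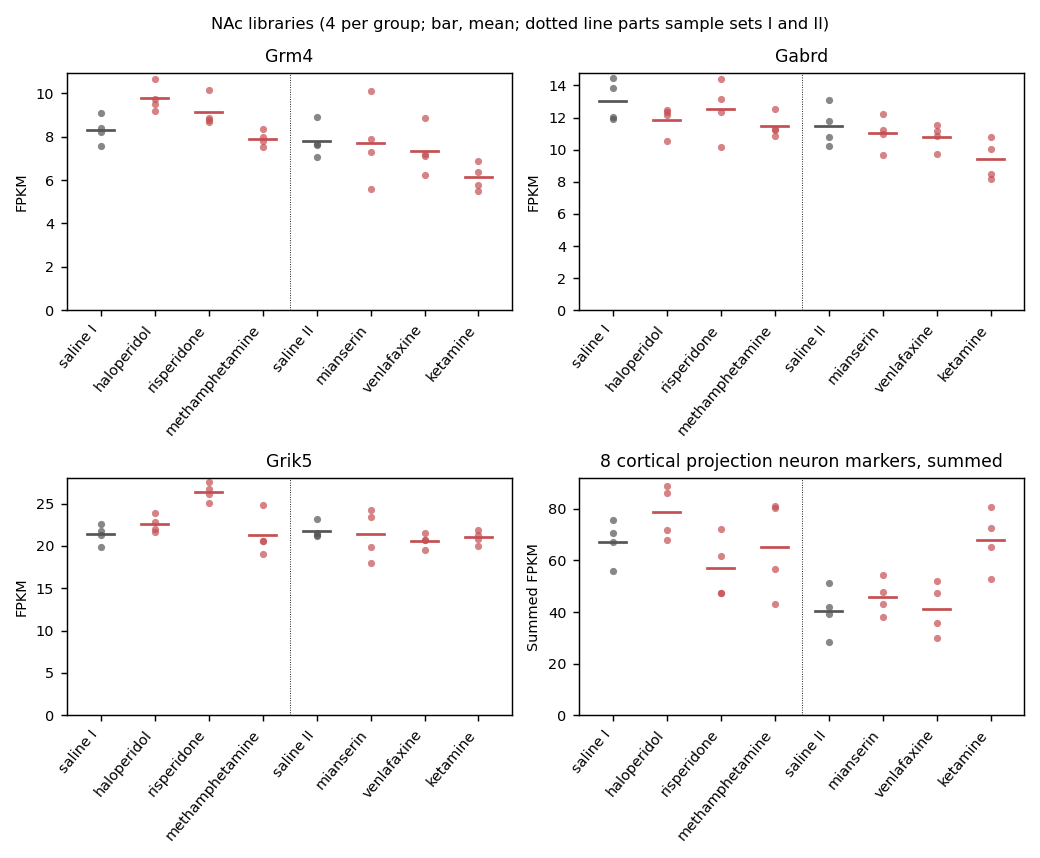
FPKM of Grm4, Gabrd and Grik5 and the summed FPKM of 8 cortical projection neuron markers in each NAc library, 4 per group, with means as bars; grey is saline, red the drugs, and the dotted line parts sample set I from set II. Ketamine libraries are low for Grm4 and high for the cortical markers beside saline set II, and the 4 risperidone libraries are the highest group for Grik5.

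Over 27 members with a mean of at least 1 FPKM, differences from own-set saline stayed small. In the NAc they ran from -0.31 (Grm4 after ketamine) to 0.37 (Grik1 after ketamine) on the log2 scale, and in the PFCx from -0.36 (Gabra2 after mianserin) to 0.24 (Grik3 after haloperidol). The median SE of a difference was 0.095 for the NAc and 0.085 for the PFCx. The median over these members for a drug lay between -0.05 (methamphetamine in the PFCx) and 0.05 (venlafaxine in the NAc). For Gabra2 in the PFCx the difference was -0.36 after mianserin (limma adjusted p = 0.133) and -0.28 after venlafaxine (limma adjusted p = 0.4215), and neither was called. Venlafaxine replicate 4 stood at 4.83 FPKM and the others at 7.29 to 9.36. Without it the difference for venlafaxine was -0.12 (adjusted p = 0.883), and that for mianserin, from the same fit, was called (adjusted p = 0.0349).

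**Figure D5:**
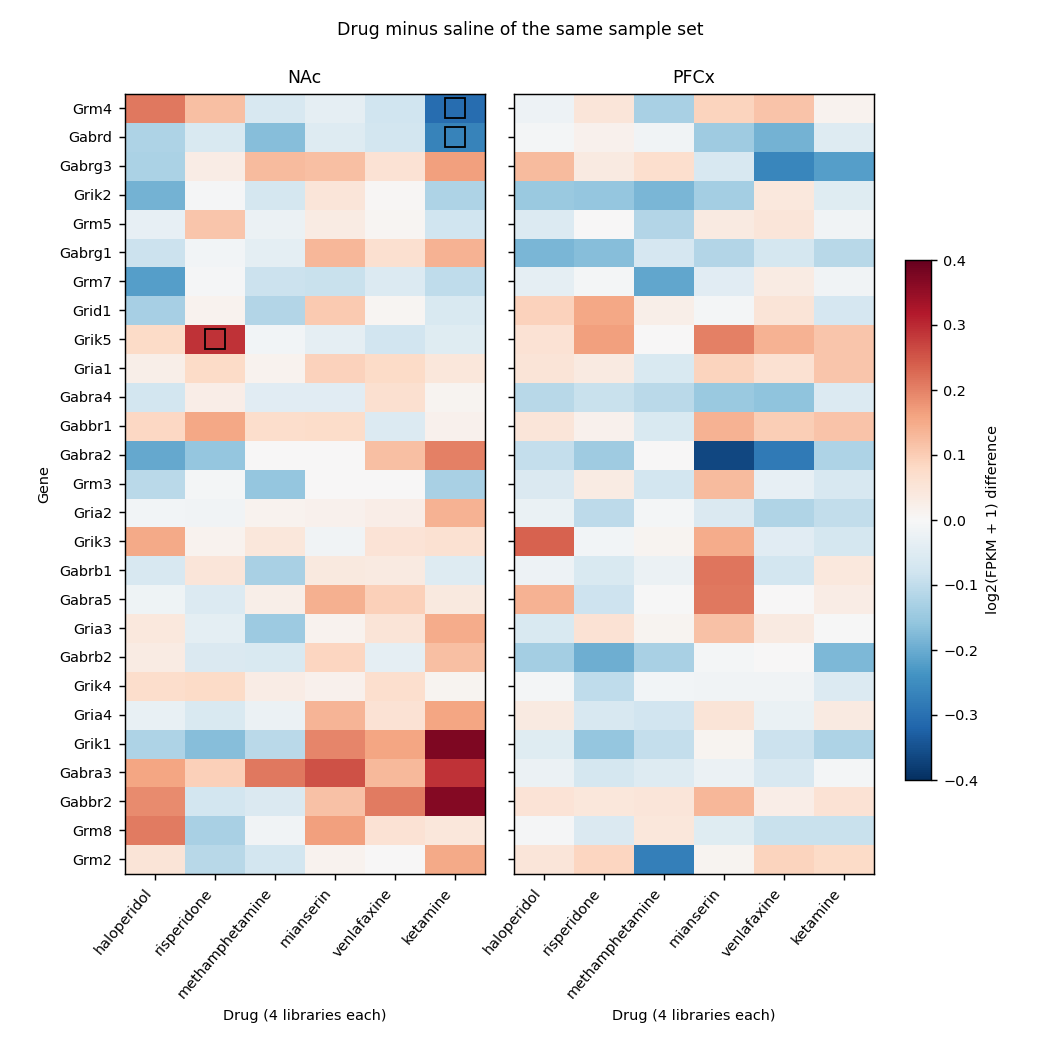
Log2(FPKM + 1) difference between each drug (4 libraries) and the saline libraries of its own set (4 libraries) for 27 members, in the NAc and the PFCx; red is higher after the drug, blue lower. Squares mark the 3 pairs called against all saline, Grik5 with risperidone and Grm4 and Gabrd with ketamine, and 0 pairs were called against own-set saline.

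Whether a drug effect differed between the tissues was tested over all 64 libraries. The interaction called 6 members against 12.9% of all genes. Of these, Gabrp, Gabrr3, Gabra6, Grm6 and Gabrq are genes near 0 whose level follows the sample set in the NAc. With own-set saline it called 0 of 40 (limma, 3 at an unadjusted p under 0.05) against 0.759% of all genes by adjusted p and 8.56% by unadjusted p.

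The 60 partner genes were tested with 6 drugs per tissue, and 8 pairs of gene and drug were called against all saline. Of these, 7 were NAc pairs and 1 a PFCx pair, with 1.21% and 0.285% of all pairs called. Own-set saline called 2, 1 per tissue, beside backgrounds of 0.297% (NAc) and 0.767% (PFCx). Partner calls with own-set saline were thus no more frequent than calls among all genes. The NAc pair was Nrxn2, a presynaptic adhesion gene, after ketamine (log2 difference 0.38, limma adjusted p = 0.0139). The PFCx pair was Cbln1, a cerebellin, also after ketamine (0.43, limma adjusted p = 0.0343). Against all saline these differences were 0.05 (limma adjusted p = 0.872) and 0.22 (adjusted p = 0.63). The call of Nrxn2 ended without ketamine replicate 2 or saline set II replicate 1 or 3 (limma adjusted p up to 0.0615), and that of Cbln1 without ketamine replicate 1, 2 or 3 or saline set II replicate 1, 3 or 4 (adjusted p up to 0.139). The NAc ketamine libraries are those with the higher cortical markers given above. Nptx2, an early-response pentraxin that gathers AMPA receptors, was higher after haloperidol in the NAc against all saline (0.71, adjusted p = 0.00464) and by 0.50 against its own set (adjusted p = 0.175).

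Single transcripts were tested as well, 157 of the 172 of the members having passed the filter. In the NAc the F test called 28 of them against all saline, with 11.6% of all transcripts called, and 3 against own-set saline, with 0.645% called. In the PFCx it called 6, with 1.12% of all called, and 2 against own-set saline, with 0.484%. With the replicate number within the set as a block, own-set saline gave 2 in the NAc (0.695% of all) and 4 in the PFCx (0.664%). The 5 transcripts called with own-set saline belong to 5 genes and are mostly not the main coding form. They are a processed transcript of Gabrd, short coding fragments of Grm7 and Grm8, and intron-retaining transcripts of Gria2 and Gabra4.

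The processed transcript of Gabrd, ENSMUST00000150423, measured 1.495, 1.66, 1.99 and 2.63 FPKM after mianserin in the NAc and 3.40, 3.64, 3.88 and 3.89 in saline set II. The log2 difference was -0.69 (limma adjusted p = 0.00943), and the groups did not overlap. Gabrd as a whole, in the same libraries, differed by -0.05 on the log2 scale (adjusted p = 0.959). The ketamine libraries of this transcript, at 1.915 to 3.10 FPKM, were also below all of saline set II. Those of venlafaxine, at 3.16 to 4.61, overlapped that set. Grm7 transcript ENSMUST00000173001, 418 bases long, measured 0.897, 1.06, 1.10 and 1.30 FPKM after haloperidol in the NAc and 2.29, 2.88, 2.93 and 4.13 in saline set I, a log2 difference of -0.94 (limma adjusted p = 0.0208), again without overlap. With the replicate block the drug effect on this transcript was not called (F test, adjusted p = 0.11).

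The intron-retaining transcript of Gabra4, ENSMUST00000199150, measured 1.09, 1.15, 1.48 and 1.52 FPKM after mianserin in the PFCx and 2.14, 2.57, 2.74 and 2.90 in saline set II, a log2 difference of -0.64 (limma adjusted p = 0.00204). Saline set I stood at 1.94 to 2.15, below all but 1 library of saline set II. Against saline set I the risperidone libraries were at 1.09 to 1.87 and the methamphetamine libraries at 1.34 to 1.59, also without overlap. The intron-retaining Gria2 transcript ENSMUST00000194164 was at 2.18 to 3.27 FPKM after mianserin, 2.42 to 3.00 after venlafaxine and 3.76 to 4.25 after ketamine in the PFCx, with 3.22 to 4.11 in saline set II and 2.90 to 3.67 in saline set I. Its largest single difference, for mianserin, was -0.35 (limma adjusted p = 0.0631). Grm8 transcript ENSMUST00000132755 was called in the NAc, where its highest group mean was 0.388 FPKM, after mianserin. No single drug passed the test for it, and with the replicate block it was not called (F test, adjusted p = 0.108).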

How the data were processed

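RNA of the NAc and PFCx was depleted of ribosomal RNA and sequenced as single-end Ion Torrent reads in 64 libraries. The authors aligned the reads with TopHat2 2.0.1 and then Tmap and estimated annotated transcripts with Cufflinks 2.2.1 (versions per the submitters' processing notes) on GRCm38. The authors deposited, per library, the FPKM of each transcript and its coverage, an unscaled read depth; read counts were not used here. Aligned bases were estimated by dividing coverage by FPKM, with the median taken over transcripts no shorter than 2000 bases and no lower than 5 FPKM. The handling of reads matching several places and of strand is not given in the sources used here. Isoforms of a gene share reads, so an error in one passes to the others.

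FPKM was summed over the transcripts of a gene. Features with a mean of at least 0.1 FPKM in a tissue were tested on log2(FPKM + 1) (pseudocount 1, which understates changes of low genes) with limma 3.58.1 in R 4.3.3, adjusted by Benjamini-Hochberg over all features, after the fits were tested on simulated data. Single values used two-sided exact permutation tests in SciPy 1.17.1. Flip and flop exons and transcript types came from GENCODE vM21. In it 99 of the 172 member transcripts are protein-coding, and 7 are absent, 6 of them of Grik2.

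Drugs were compared with all 8 saline libraries of a tissue and with the 4 of their own set. Named genes were the 4 with the largest called tissue difference in each direction, members called for a single drug, and isoforms of Gria1 to Gria4. Gabra5, the transcripts called with own-set saline, and the partner genes given with values were chosen after their values were seen. The members, the partner lists and the marker lists were chosen with earlier results of these data known. Results of 5 members are not reported here, though they remain in the counts over the 40 genes. Replicate numbers did not pair the tissues: same-numbered saline libraries correlated at -0.37 to 0.08 in their deviations from group means, and 2 of 8 were closest to their own number. Within a tissue, drug libraries and same-numbered saline libraries of their set correlated at a mean of 0.03 (ketamine, NAc) to 0.40 (methamphetamine, PFCx), and every pair was over 0.1 for haloperidol and methamphetamine in both tissues and for risperidone and mianserin in the NAc. In these groups the numbers were taken to pair the libraries, which the labels do not state. Venlafaxine in the NAc fell just short, with a lowest pair of 0.098. Alternatives included another pseudocount, other filters, 75th percentile scaling, a replicate block and leaving out each library.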

Additional observations from a re-analysis of the deposited data

Results flagged for a closer look

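In 89 groups of 4 or 8 libraries, 10 held a library far from the rest by Dixon's test, of which chance gives about 1 in 20. Among PFCx saline libraries, 1 was low for Gabbr2, at 22.7 FPKM with the others at 27.4 to 30.7. In the same group 4 different libraries were high for 1 gene each, at 3.80 FPKM for Gabrg1 (others 2.31 to 2.95), 9.09 for Grid1 (others 5.68 to 7.21), 36.2 for Grm5 (others 31.2 to 33.2) and 20.8 for Grm7 (others 16.7 to 18.3). In the NAc saline libraries 1 was high for Gabrb1 (16.8 FPKM, others 12.5 to 14.5) and a different one for Grm5 (54.2, others 46.7 to 49.4).

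The flip share of Gria4 was 0.008% in 1 NAc saline library, with the others at 27.5% to 49.7%. That of Gria2 was 68.8% in 1 haloperidol library of the NAc (others 74.3% to 75.1%) and 66.4% in 1 ketamine library (others 70.5% to 71.2%).

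The drug effect differed between the tissues for 5 genes near 0 against all saline by limma's interaction test: Gabrr3 (adjusted p = 0.00395), Gabrp (0.00534), Gabra6 (0.0163), Grm6 (0.0355) and Gabrq (0.0362). With own-set saline the adjusted p of these 5 lay between 0.833 (Gabrp) and 1.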

How the results depend on the processing

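The 8 genes with the largest tissue differences kept direction and call under all 30 alternatives each, except Grik2. With protein-coding transcripts alone, an alternative chosen after seeing the data as were the drug libraries in place of saline and transcripts above 0 in every tissue and sample set, Grik2 turned to -1.03 (adjusted p = 0.0522), since 6 of its 8 transcripts are absent from the annotation and dropped out. The count of members called between the tissues was 26 to 28 with 1 library left out (NAc 12 to 12, PFCx 14 to 16), 25 in set I and 22 in set II. Own-set saline took the drug counts to 0 (NAc genes), 0 (single drugs, NAc), 0 (PFCx genes), 0 (interaction), 3 (NAc transcripts) and 2 (PFCx transcripts), and with the replicate block within the set, added after seeing the data, to 0, 0, 0, 0, 2 and 4 in the same order. A mean FPKM of at least 1 gave 10 NAc genes, 18 NAc transcripts and 0 interactions. A pseudocount of 0.1 gave 1 single-drug pair in the NAc, 0 genes and 3 transcripts in the PFCx, no filter 5 single-drug pairs in the NAc, 75th percentile scaling 2 genes in the PFCx, and transcripts above 0 in every group 2 interactions. In saline set II 1 isoform share was called, Grik2 transcript ENSMUST00000079751, 18.98 points lower in the NAc. The cause of these changes was not tested.

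With 1 library left out, the counts ran from 15 to 19 (NAc genes), 1 to 6 (single drugs, NAc), 0 to 1 (PFCx genes), 0 to 1 (single drugs, PFCx), 4 to 6 (interaction), 24 to 30 and 4 to 6 (transcripts, NAc and PFCx) and 0 to 1 (isoform shares). The call of Gabra5 in the PFCx ended without any 1 of 12 libraries (4 risperidone, 3 mianserin, 2 venlafaxine, 2 ketamine, 1 methamphetamine). The single-drug count in the NAc was 1 without ketamine replicate 1 or 3, risperidone replicate 2, 3 or 4, or saline set I replicate 1 or 4, and 5 to 6 without saline set II replicate 1, 2 or 3. An isoform share was called without saline set I replicate 3 of the NAc or 4 of the PFCx, and a single-drug pair in the PFCx without venlafaxine replicate 1. The calls of Grik5 after risperidone and Gabrd and Grm4 after ketamine ended under 12, 9 and 22 of 44 alternatives, with adjusted p up to 0.305, 0.26 and 0.24, and kept their direction.

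The replicate block gave 26 tissue calls (12 in the NAc, 14 in the PFCx), 16 NAc genes, 27 and 5 transcripts, 6 interactions, 3 single-drug pairs in the NAc and 0 PFCx genes, where Gabra5 was lost. Without counts, the tables give no counting error.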
